A study of Mus musculus with 2 samples.

Results

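A set of 10 genes that mark myofibroblasts or encode matricellular and elastic matrix proteins was followed across the cells of the injured mouse lung, namely Acta2, Tagln, Cthrc1, Postn, Fn1, Spp1, Tnc, Thbs1, Eln and Lox. They were chosen by gene symbol, and all 10 were among the 31053 genes listed for both libraries. Single-cell RNA sequencing was done on lung cells taken 1 week after bleomycin (1.35 U/kg), a drug that injures the alveolar epithelium, from 1 Pclaf wild-type (WT) and 1 Pclaf knock-out (KO) library. The KO mice came from an established line, mice were 8 to 10 weeks old, and both groups received bleomycin, so no uninjured lung is compared. How many mice went into a library is not given in the sources used here, and with 1 library per genotype no test between genotypes was possible. The intervals below cover counting error only, at the 95% level.

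The libraries held 30669 (WT) and 17172 (KO) cell barcodes, of which 30187 and 15637 were kept, with 16000 cells loaded for each. Barcodes thus exceeded the cells loaded in both libraries, so a kept barcode need not be 1 intact cell and numbers of cells below are numbers of kept barcodes. Kept barcodes had median depths of 2127 and 5957 UMIs (unique molecular identifiers, each standing for 1 captured RNA). The labels describe cells sorted as Epcam+ and negative for Cd31 and Cd45, but epithelial-like cells were 4.29% of kept WT cells and 65.6% of kept KO cells, and most classed WT cells were immune or endothelial. Shares of cells between the libraries are therefore not compared, and levels are given within cell classes, as UMIs of the gene per 1000000 UMIs of the class (CPM). Pclaf itself had 3763 UMIs (39.3 CPM) in kept cells of the library labelled WT and 529 (5.19 CPM) in those of the library labelled KO. In cycling-epithelial-like cells, WT had 155 CPM (104 to 221) against 79.0 (70.0 to 88.8) in KO, and in cycling mesenchymal cells the levels were 325 (259 to 403) and 211 (151 to 287) CPM, with overlapping intervals. Pclaf RNA was thus still counted in the library labelled KO, and the part of the gene that is deleted is not given in the sources used here, so these 3′ counts do not settle the label. WT and KO below stand for the libraries labelled so. The libraries shared 163 barcodes, 138 of them kept in both.

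Myofibroblasts are contractile, matrix-building cells that appear after lung injury and are defined by alpha smooth muscle actin. Matricellular proteins such as osteopontin, periostin, tenascin and thrombospondin are secreted into the matrix and act on cells through integrins and growth factors rather than as structural fibres. Elastin gives alveolar walls and vessels their recoil and is cross-linked by lysyl oxidase. Several of these genes are also active outside myofibroblasts, in smooth muscle, pericytes and macrophages, so each was read in every class.

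The contractile genes are Acta2 (chr19:34241090-34255590, minus strand, GRCm38), encoding alpha smooth muscle actin, and Tagln (chr9:45929619-45936058, minus strand), encoding the actin-binding protein transgelin. Cthrc1 lies at chr15:39076932-39087121, Postn at chr3:54361109-54391037, Spp1 at chr5:104435118-104441050 and Thbs1 at chr2:118111876-118127133, all on the plus strand. Fn1 lies at chr1:71585520-71653200, Tnc at chr4:63959785-64047015 and Eln at chr5:134702593-134747323, all on the minus strand. Tagln, Fn1, Thbs1 and Eln each overlap at least 1 other counted gene on the opposite strand.

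RefSeq promoter windows (GRCm38.p6) were at hand for 4 of the 10 genes, Acta2, Postn, Spp1 and Tnc. Contractile genes are known targets of serum response factor, which binds the CArG box, so the 250 bases before each start were searched on both strands. None of these windows held an exact CArG box (CC and GG with 6 bases of A or T between them), which 1.47% of all 32851 windows held. Boxes that depart from this form were not searched for as such, so the search does not show that a promoter lacks the element. The looser pattern of CC and GG with any 6 bases between them, searched apart from the exact box and able to overlap it, occurred 3 times before the Acta2 start, but 67.1% of all windows hold it at least once. The pair nearest to the start are shown because Acta2 is the gene that most sharply marks contractile cells below, with the Postn TATAAA match for contrast (12.4% of all windows hold TATAAA). Capitals mark the match, each run is 30 bases, 5′ to 3′ on the gene's strand, and a match is a description of letters, not of binding.
Acta2, chr19:34255438-34255467, minus strand: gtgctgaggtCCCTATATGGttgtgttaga
Acta2, chr19:34255388-34255417, minus strand: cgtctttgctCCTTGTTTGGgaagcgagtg
Postn, chr3:54361069-54361098, plus strand: agcccagagctaTATAAActcagctctcca
The Acta2 matches lie 84 to 75 and 34 to 25 bases before the RefSeq start, inside the GENCODE span of the gene given above. They depart from the exact CArG box only by a C between the CC and GG in the first and a G there in the second. The Postn match lies 26 to 21 bases before its start.

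**Figure D1:**
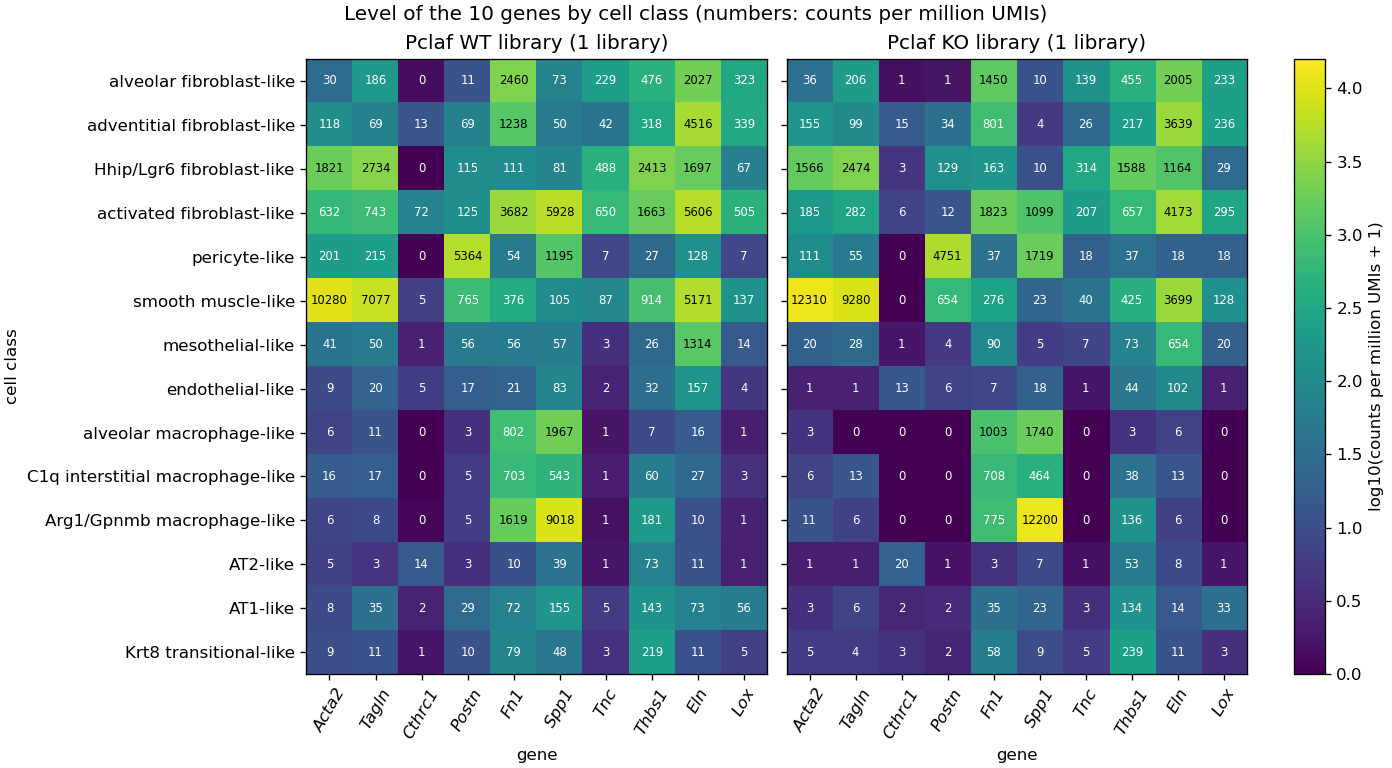
Level of each gene (columns) in each cell class (rows) in the WT library and the KO library, coloured by log10 of CPM + 1 and printed as CPM. Acta2 and Tagln peaked in smooth-muscle-like cells, Postn in pericyte-like cells and Spp1 in Arg1/Gpnmb-macrophage-like cells in both libraries, while the activated-fibroblast-like row was lower in the KO library for all 10 genes.

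Cell classes were named from marker lists that held none of the 10 genes, and the 10 genes were kept out of the genes used for clustering. Alveolar-fibroblast-like cells numbered 837 in WT and 1532 in KO, adventitial-fibroblast-like 128 and 159, Hhip/Lgr6-fibroblast-like 119 and 144, activated-fibroblast-like 234 and 340, smooth-muscle-like 255 and 105, and pericyte-like 71 and 24. The activated class was led by Timp1, Saa3, Fst and Sfrp1, and 5 of the 11 markers fixed for it were raised there. Of the other markers, Lrrc15 had 1 UMI in WT and 0 in KO, and Fap had 12 and 14.

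The contractile genes were above all smooth muscle genes in these lungs. Acta2 reached 10280 CPM in WT and 12310 CPM in KO smooth-muscle-like cells, and Tagln reached 7077 and 9280 CPM. The next class for both was the Hhip/Lgr6-fibroblast-like class, with Acta2 at 1821 CPM in WT and 1566 in KO and Tagln at 2734 and 2474. Activated-fibroblast-like cells came below it, with Acta2 at 632 CPM in WT and 185 in KO and Tagln at 743 and 282. Pericyte-like cells held little of either, with 30 and 6 UMIs of Acta2. The order smooth muscle, Hhip/Lgr6, activated was the same in both libraries, and none of the counting intervals of these 3 classes overlapped within a library for either gene. The few cycling mesenchymal cells, described at the end, lay above the activated class for Acta2 in both libraries.

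When every cell was thinned to 1000 UMIs, Acta2 was seen in 93.2% of WT and 93.8% of KO smooth-muscle-like cells. It was seen in 50% and 52.5% of Hhip/Lgr6-fibroblast-like cells, in 23.5% and 9.14% of activated-fibroblast-like cells, and in 2.68% and 1.59% of alveolar-fibroblast-like cells. The AT2-like cells, which should lack the gene, gave 1.12% in WT and 0.0543% in KO, so the alveolar-fibroblast-like share was above that background in KO, while in WT the counting intervals overlapped. Before thinning, 45.3% of WT and 29.4% of KO activated-fibroblast-like cells held an Acta2 UMI, at median depths of 5545.5 and 6174.5 UMIs, against 2.58% and 0.832% of AT2-like cells at 5224 and 7122.5 UMIs. Thinning left out 48 WT and 9 KO smooth-muscle-like cells, 128 and 277 alveolar-fibroblast-like cells and at most 3 cells per library in the Hhip/Lgr6 and activated classes.

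Periostin, a matricellular protein known from fibroblasts and periosteum, had its top level in pericyte-like cells. Postn reached 5364 CPM (4998 to 5749) in WT and 4751 CPM (4188 to 5369) in KO pericyte-like cells, intervals that overlap. It was found in all 71 WT pericyte-like cells and in 91.7% of the 24 KO cells, too few cells for a ratio. Smooth-muscle-like cells followed with 765 CPM in WT and 654 in KO. Activated-fibroblast-like cells had 125 CPM in WT and 12.2 in KO, which was about the level of Hhip/Lgr6-fibroblast-like cells in WT (115 CPM) but not in KO (129 CPM). Taken over all kept cells, 19.95% of WT and 26.3% of KO Postn UMIs lay in the few pericyte-like cells, which held 0.156% and 0.0531% of all UMIs. Smooth-muscle-like cells held 18.0% of WT and 35.4% of KO Postn UMIs, more than pericyte-like cells in KO.

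Osteopontin, encoded by Spp1, was chiefly a macrophage product, with a small set of very high mesenchymal cells. Arg1/Gpnmb-macrophage-like cells, a lipid-handling, repair-associated state, had 9018 CPM in WT and 12200.5 in KO. Alveolar-macrophage-like cells had 1967 and 1740 CPM and C1q-interstitial-macrophage-like cells 543 and 464. The KO macrophage classes held only 19, 38 and 29 cells, and 1 of the 19 Arg1/Gpnmb cells supplied 939 of their 2157 UMIs. Without the highest cell of each library, the Arg1/Gpnmb class stood at 8877 CPM in WT and 8217 in KO. For the 3 macrophage classes together KO over WT came to a log2 ratio of 0.11 (0.05 to 0.16), and −0.40 without the highest cell of each library, so its sign rested on 1 cell.

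Outside macrophages, pericyte-like cells had Spp1 at 1195 CPM in WT and 1719 in KO, with a UMI in 40.8% and 41.7% of them. Activated-fibroblast-like cells had 5928 CPM in WT and 1099 in KO. These averages stood on few cells: 80 of 234 WT cells and 28 of 340 KO cells held a Spp1 UMI, 1 WT cell held 2812 of the 8741 WT UMIs, and 1 KO cell held 1124 of the 2435 KO UMIs. Spp1 was also higher in WT in endothelial-like cells, at 83.3 CPM in WT and 18.4 in KO, and in AT2-like cells, at 38.8 and 7.33 CPM. Alveolar-fibroblast-like cells, with 73.2 CPM in WT and 10.2 in KO, were within that range.

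**Figure D2:**
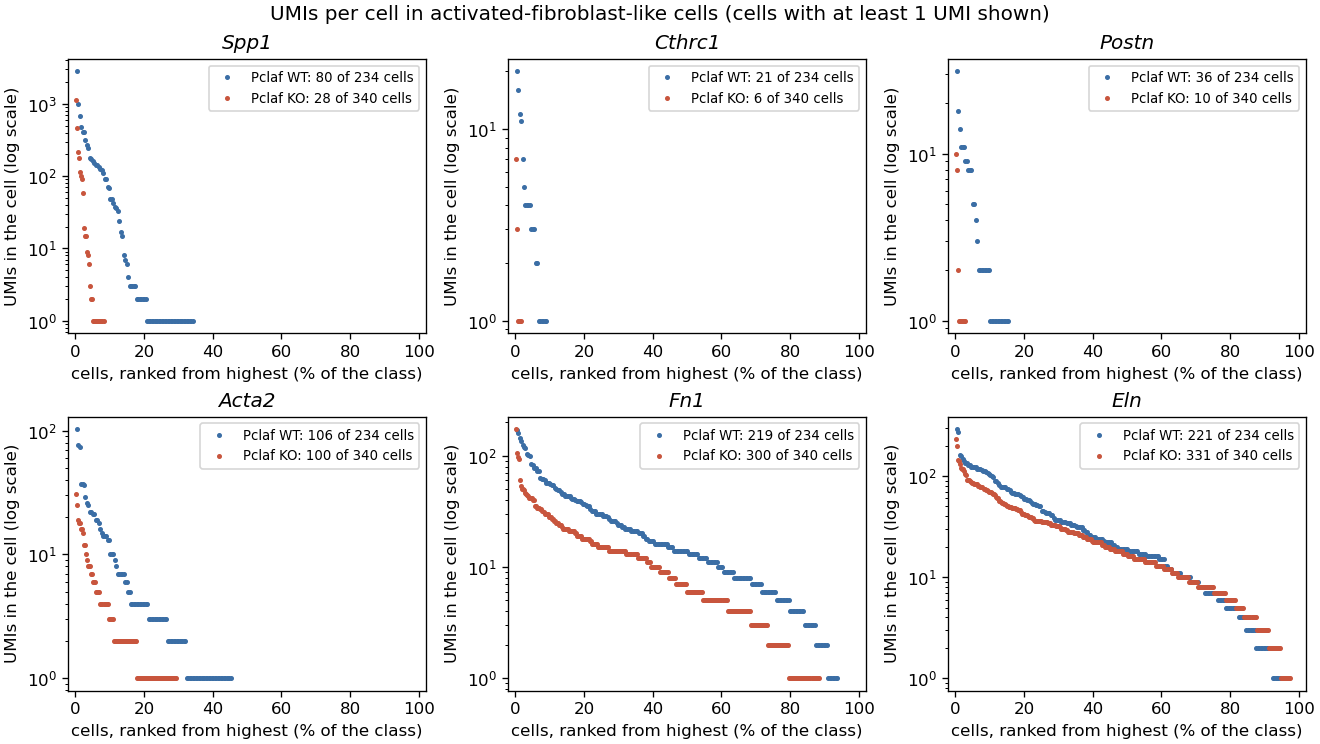
UMIs per cell (vertical, log scale) against the cell's rank in percent of the class (horizontal) for 6 genes in activated-fibroblast-like cells, WT in blue and KO in red, cells without a UMI not drawn. Spp1, Cthrc1 and Postn came from a minority of cells, 80, 21 and 36 of 234 in WT, while Fn1 and Eln were present in most cells of both libraries.

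Fibronectin, a cell-binding matrix glycoprotein laid down early after injury, was broadly fibroblastic and was also present in macrophages. Activated-fibroblast-like cells had Fn1 at 3682 CPM in WT and 1823 in KO, and the few cycling mesenchymal cells had 3775 and 1657, with overlapping intervals in each library. Alveolar-fibroblast-like cells had 2460 and 1450 CPM. Arg1/Gpnmb-macrophage-like cells had 1619 CPM in WT and 775 in KO, and adventitial-fibroblast-like cells 1238 and 801. Hhip/Lgr6-fibroblast-like cells, high in Acta2, were low in Fn1, at 111 CPM in WT and 163 in KO. Macrophage-like cells, which held 16.2% of all WT UMIs and 0.643% of KO ones, held 32.9% of WT and 2.53% of KO Fn1 UMIs.

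Tenascin C and thrombospondin 1, an activator of latent TGF-beta, were both prominent in the Hhip/Lgr6 and activated classes. Tnc was at 650 CPM in WT and 207 in KO activated-fibroblast-like cells and at 488 and 314 in Hhip/Lgr6-fibroblast-like cells, so the order of these classes differed between the libraries. Cycling mesenchymal cells had Tnc at 650 CPM (556 to 757) in WT, near the activated class. That level stood on 19 of 58 cells, and 1 cell held 67 of the 168 UMIs. In KO the cycling mesenchymal cells held 27 Tnc UMIs. Hhip/Lgr6-fibroblast-like cells had Thbs1 at 2413 CPM in WT and 1588 in KO, the top level among named classes, and an unnamed mesenchymal cluster had 2112 and 1700. It reached 1663 and 657 CPM in activated-fibroblast-like cells and 914 and 425 in smooth-muscle-like cells. In the epithelium Thbs1 was at 219 CPM in WT and 239 in KO Krt8-transitional-like cells, a state between AT2 and AT1 cells, and at 143 and 134 CPM in AT1-like cells. Its interval in Krt8-transitional-like cells was 195 to 246 in WT and 229 to 249 in KO, and the log2 ratio was 0.12 (−0.06 to 0.30).

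The elastic genes were spread over fibroblasts and smooth muscle. Eln was at 5606 CPM in WT and 4173 in KO activated-fibroblast-like cells, at 5171 and 3699 in smooth-muscle-like cells, at 4516 and 3639 in adventitial-fibroblast-like cells and at 2027 and 2005 in alveolar-fibroblast-like cells. In KO the smooth muscle (3537 to 3866) and adventitial (3521 to 3759) intervals overlapped. Lox was at 505 CPM in WT and 295 in KO activated-fibroblast-like cells, at 339 and 236 in adventitial-fibroblast-like cells and at 323 and 233 in alveolar-fibroblast-like cells, the last 2 with overlapping intervals in each library. Eln and Lox were at most 10.9 and 1.36 CPM in AT2-like cells. AT1-like cells had more, with Eln at 68.7 CPM in WT and 12.0 in KO and Lox at 49.7 and 29.3, without the highest cell of each library.

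Cthrc1, a secreted glycoprotein used to mark matrix-producing fibroblasts in fibrotic lung, was nearly missing from most fibroblasts. It had 106 UMIs (71.9 CPM) in WT activated-fibroblast-like cells and 14 UMIs (6.32 CPM) in KO, in 21 of 234 and 6 of 340 cells. Adventitial-fibroblast-like cells had 12.5 and 15.1 CPM, and alveolar-fibroblast-like cells 1 and 3 UMIs in all. AT2-like cells had a low but repeated level, 14.3 CPM (8.85 to 21.8) in WT and 19.8 CPM (18.5 to 21.2) in KO. In KO, 688 of 5528 AT2-like cells held a Cthrc1 UMI, no more than 5 in a cell. Macrophage-like cells had 1 UMI in WT and 0 in KO, where a floor of 3 counts would be 4.58 CPM. Epithelial-like cells, which held 74.5% of all KO UMIs and 6.03% of WT ones, supplied 84.8% of KO Cthrc1 UMIs and 8.00% of WT ones.

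**Figure D3:**
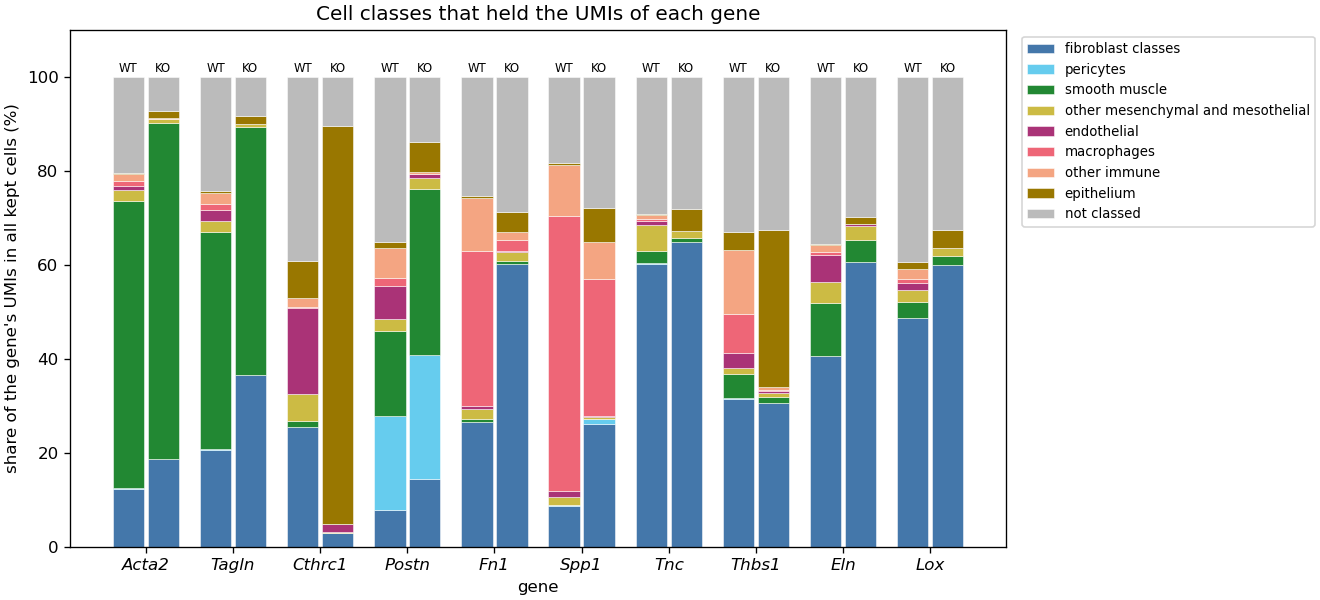
Share of each gene's UMIs, over all kept cells of a library, held by each group of cell classes, with WT and KO bars side by side; grey is cells left without a class name. Acta2 and Tagln came mostly from smooth muscle and fibroblast classes in both libraries. The named group with the largest share differed between the libraries for Cthrc1, Postn, Fn1 and Thbs1. The libraries also differed in make-up, with 6.03% of all WT UMIs and 74.5% of all KO UMIs in epithelium.

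The source of each gene shows what a whole-library average would have mixed. Smooth-muscle-like cells held 61.1% of WT and 71.5% of KO Acta2 UMIs, though they were 0.845% and 0.671% of kept cells. Macrophage-like cells held 58.6% of WT and 29.0% of KO Spp1 UMIs. Epithelial-like cells held 3.89% of WT and 33.4% of KO Thbs1 UMIs. Cells without a class name held between 18.3% and 39.5% of a gene's UMIs in WT and between 7.32% and 32.7% in KO.

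In activated-fibroblast-like cells all 10 genes were lower in KO, and 8 of the 10 were at least 2-fold lower, where 2.34% of the 7908 genes with at least 50 UMIs were. Of the same 7908 genes, 56.9% were lower in KO by any amount. On the log2 scale KO over WT came to −3.51 (−4.43 to −2.70) for Cthrc1, −3.36 (−4.0 to −2.77) for Postn and −2.43 (−2.50 to −2.37) for Spp1. It was −1.77 (−1.94 to −1.60) for Acta2, −1.65 for Tnc, −1.40 for Tagln, −1.34 for Thbs1 and −1.01 (−1.07 to −0.95) for Fn1. Lox (−0.78) and Eln (−0.43) were the members that stayed within 2-fold. The intervals leave out spread between cells. Without the highest cell of each library Spp1 stood at −2.78, outside its interval, and Cthrc1 and Postn at −4.21 and −3.77, inside theirs. The median over the 10 genes was −1.53, against −0.05 over all 7908 genes. The count of 8 depended on the clustering, falling to 3 with 20 principal components (144 WT and 68 KO cells), where Fn1 was at −0.41, Spp1 at −0.82 and Tnc at −0.39. The share of all genes past 2-fold in that clustering is not given here.

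Other values of this class moved in the same contrast. The 11 markers fixed for the class summed to 3643 CPM in WT and 1918 in KO, and the 9 alveolar fibroblast markers to 3751 and 5802. The 7 immune markers summed to 85.5 CPM in WT, with none at 0, and to 16.7 CPM in KO, with Ptprc and Cd53 at 0, and the 8 AT2 markers to 160 and 1432 CPM. The 7 Arg1/Gpnmb macrophage markers summed to 1621 and 1506 CPM, mostly Cd63 and Mmp14, which fibroblasts also express, while Arg1 had 2 UMIs in each library. The part of these differences in the result was not tested. No immune marker UMI was held by 159 WT and 311 KO cells, 67.9% and 91.5% of the class. In these all 10 genes were lower in KO, with Spp1 at −1.34 (whole class −2.43) and Acta2 at −1.46 (whole class −1.77). A cell without these UMIs can still hold RNA from other cells, so this filter does not test their part.

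**Figure D4:**
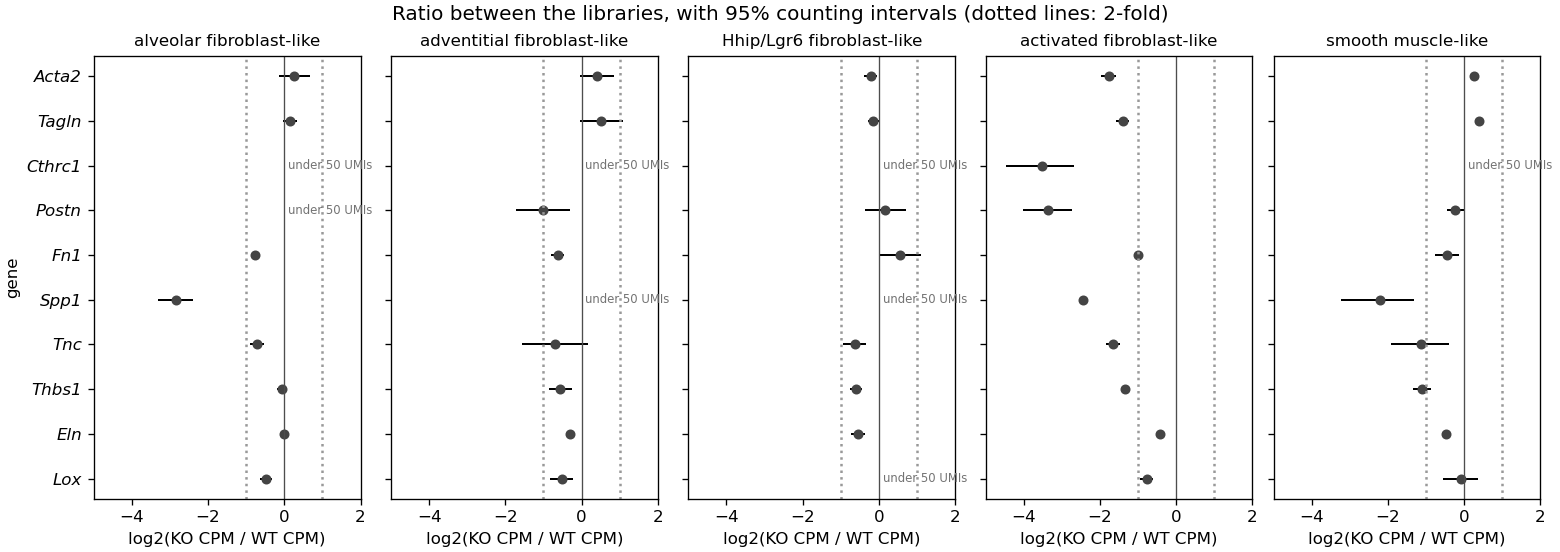
Log2 ratio of KO CPM over WT CPM (horizontal) for each gene (vertical) in 5 cell classes, with lines for 95% counting intervals, dotted lines at 2-fold, and genes under 50 UMIs left out. All 10 genes lie left of 0 in the activated class, while Acta2 and Tagln lie right of 0 in the alveolar, adventitial and smooth muscle classes.

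The other fibroblast-like classes had fewer genes past 2-fold. In alveolar-fibroblast-like cells 1 of 8 genes with enough UMIs, Spp1, was at least 2-fold lower (all genes, 1.82%), and Fn1 (−0.76), Tnc (−0.72) and Lox (−0.48) were lower within 2-fold. Acta2 (0.26, −0.11 to 0.64), Thbs1 (−0.07, −0.16 to 0.03) and Eln (−0.02, −0.06 to 0.03) had intervals that held 0 there. In adventitial-fibroblast-like cells 1 of 8, Postn at −1.01 (−1.70 to −0.33), was past 2-fold (all genes, 1.09%). In Hhip/Lgr6-fibroblast-like cells 0 of 7 were (all genes, 3.01%), with Acta2 at −0.22, Tagln at −0.14 and Thbs1 at −0.60.

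Smooth-muscle-like cells went the other way for the contractile genes. Acta2 was higher in KO by a log2 ratio of 0.26 (0.21 to 0.31) and Tagln by 0.39 (0.34 to 0.44). These are small differences from the main clustering. Over the processing alternatives Acta2 ran from 9662 to 12057 CPM in WT and from 9813 to 18645 in KO. Tagln ran from 6473 to 8301 CPM in WT and from 7250 to 12991 in KO. The ranges of the libraries thus overlapped for both genes. Thbs1 (−1.10), Tnc (−1.13) and Spp1 (−2.21) were at least 2-fold lower, 3 of the 9 genes with enough UMIs, where 4.37% of all genes were. The Spp1 value came from 99 WT and 12 KO UMIs and was near the endothelial-like level of each library. The 8 smooth muscle markers summed to 7852 CPM in WT and 7442 in KO.

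Over the 4 fibroblast-like classes together, 1318 WT and 2175 KO cells, 5 of the 10 genes were at least 2-fold lower in KO and none higher, where 2.59% of 11353 genes were lower and 0.652% higher. The 5 were Spp1 (−2.70), Cthrc1 (−2.61), Postn (−2.01), Tnc (−1.17) and Acta2 (−1.06, −1.15 to −0.97). Just inside the limit were Fn1 and Thbs1 (both −0.81), then Tagln (−0.65), Lox (−0.58) and Eln (−0.32). Without the activated class 2 of the 9 genes with enough UMIs were at least 2-fold lower, Spp1 (−2.90) and Postn (−1.14), where 2.28% of all genes were. In macrophage-like cells 2 of 7 genes, Tagln and Eln, were at least 2-fold lower (all genes, 10.3%), from 3 and 5 KO UMIs.

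Lower values in KO were not particular to fibroblasts. In epithelial-like cells 7 of 10 genes were at least 2-fold lower in KO and 1, Cthrc1, was at least 2-fold higher (all genes, 7.76% and 1.87%). The 7 lower genes were at 57.2 CPM or less in WT. In endothelial-like cells 6 of 9 were lower and 1 higher (all genes, 4.44% and 4.96%), again at 83.3 CPM or less in WT. The median over the members with enough UMIs was −1.58 in epithelial-like cells (all genes, −0.18) and −1.44 in endothelial-like cells (all genes, −0.10). Both were close to the −1.53 of the activated class. The epithelial pool differed in make-up, with 271 AT2-like cells of 1294 in WT and 5528 of 10254 in KO. Within its classes the median was −1.45 in AT2-like (7 genes), −1.03 in AT1-like (5) and −0.71 in Krt8-transitional-like cells (6). It was −0.80 in goblet-like (4), −1.82 in ciliated-like (4) and −2.82 in club-like cells (1). The part of make-up in the pooled ratios was not tested. Most levels of the members in epithelial-like and endothelial-like cells are a small part of those in the classes above. The part of free RNA in them was not tested. The Cthrc1 ratio of epithelial-like cells was 1.02 (0.54 to 1.55), but within AT2-like cells it was 0.47 (−0.15 to 1.17), and its interval held 0.

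Within single activated-fibroblast-like cells, Cthrc1 and Postn occurred together. With each cell thinned to 3000 UMIs, 10 of the 13 WT cells with a Cthrc1 UMI also held Postn, against 7.65% of the cells without Cthrc1. Of 59 WT cells with Spp1, 57.6% held Tnc, against 32.0% of those without. Of 82 WT cells with Acta2, 70.7% held Tagln, against 23.6% of those without. In KO 2 cells held Cthrc1 and 5 held Postn, too few to say whether they overlapped, while Acta2 and Tagln met in 34 of 64 cells. These counts describe cells of 1 library each.

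Related genes of the pathway were counted over the 4 fibroblast-like classes together, where 2.59% of all genes were at least 2-fold lower in KO, 65.0% were below 0 and the median was −0.11. Of 12 other contractile genes 2 were at least 2-fold lower, Actg2 (−1.66) and Cnn1 (−1.49), none was higher, 11 were below 0, and the list's median was −0.37. The 2 with the most UMIs, Mylk (myosin light chain kinase) and Cald1 (caldesmon), were at −0.04 and −0.22. Of 13 other matricellular genes listed, 9 were found by symbol, all with enough UMIs. Ccn1, Ccn2, Ccn4 and Ccn5 were not found under these symbols, so their levels are not known here. Of the 9 found, 2 were at least 2-fold lower, Thbs2 (−1.45) and Thbs4 (−2.79), and 7 were below 0. The abundant Sparc and Sparcl1 were at −0.09 and −0.04. Of 12 elastic fibre assembly genes 0 passed 2-fold and 8 were above 0, with Mfap4 at 0.37 and Fbn1 at −0.19. The 4 lysyl oxidase relatives stayed within 2-fold and 3 were below 0, with Loxl1 at 0.19 and Loxl2 at −0.67. Of 12 integrins and other receptors with enough UMIs 2 were at least 2-fold lower, Itga5 (−1.39) and Cd36 (−1.93), and 9 were below 0. Itga8 and Itgb1 were at 0.11 and −0.23. Of 8 serum response factor cofactor and feedback genes listed, 6 were found by symbol, while Mrtfa and Mrtfb were not. Of the 6 found none passed and 5 were below 0, with Smad7 at −0.22. Actg2, Cnn1, Thbs2, Thbs4, Itga5 and Cd36 are named because they passed the 2-fold limit.

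The 10 genes fell into different profiles over 39 combinations of class and library with at least 50 cells, which share libraries and depth and are given as a description. Acta2 and Tagln were each other's closest gene of 14913 (Pearson r = 0.96 of log2 of CPM + 1), followed for both by Myl9 and Des. Eln was closest to Bgn (0.98), Col1a2 (0.97) and Col3a1 (0.97), and Lox to Sod3 (0.95), Col6a3 (0.94) and Mgp (0.93). Tnc was closest to Col6a3 (0.95), Adamts8 (0.93) and Sod3 (0.93), and Fn1 to Pid1, Sh3pxd2b and Lrp1 (0.89 each). Postn was closest to Rgs5 (0.87), Nes (0.85) and Cdh6 (0.84), Thbs1 had Tnc (0.85) and Pmepa1 (0.85) among its closest, Spp1 was closest to Mmp8 (0.73), Batf3 (0.73) and Klhl6 (0.72), and Cthrc1 to Fbn2 (0.62), Fkbp11 (0.60) and Mex3a (0.59).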

How the data were processed

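Per the file headers and labels, the deposited matrices hold whole-number UMI counts for each gene in each barcode, not normalized by the authors (10x 3′ libraries, GRCm38). The headers name Cell Ranger 5.0.0 and the submitters' processing notes name Cell Ranger 3.1.0 and STAR. Cells with more than 200 and fewer than 5000 genes and under 20% mitochondrial UMIs were kept, after the study's methods. Cells were clustered with Seurat 5.3.0 (10000 UMIs per cell, 2000 variable genes without the 10 members, 10 components, resolution 0.8) in rounds and named from marker lists. The scoring rule was set after clusters were seen, so class names are rebuilt and may differ from the study's. Scrublet marked 7.76% of WT and 2.70% of KO cells as doublets, which were kept except in an alternative. The rates expected from the numbers of kept cells were 24.15% and 12.51%, so doublets may remain in that alternative too. Counts were summed per class and library. Ratios are given for classes with at least 50 cells in each library, with exact Poisson, conditional and binomial intervals, and genes count as past 2-fold only with at least 50 UMIs over both libraries. A count of 0 was set at 3 counts for bounds. A simulation with known ratios was used to test the ratio code. All 10 members, 2 genes with most UMIs of each related list, genes past 2-fold and the 3 closest profiles are named, except for items that are not reported here. The members and lists were chosen with earlier results of these data known.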

Additional observations from a re-analysis of the deposited data

Results flagged for a closer look

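For 4 genes the ratio between the libraries had opposite signs in 2 cell classes where the gene was at 100 CPM or more in both libraries, with counting intervals that exclude 0. With 1 library per genotype these differences were not tested. The log2 ratio of Acta2 in smooth-muscle-like cells exceeded that in activated-fibroblast-like cells by 2.03, and that of Tagln by 1.79. Over the processing alternatives the smooth muscle levels of both genes had ranges that overlapped between the libraries. For Fn1 the Hhip/Lgr6-fibroblast-like value, from 53 WT and 96 KO UMIs, exceeded the activated-fibroblast-like value by 1.57. In that class 1 WT cell held 24 and 1 KO cell 40 of these UMIs. Without the highest cell of each library Fn1 stood there at 61.6 CPM in WT and 97.1 in KO, a log2 ratio of 0.66. Both levels are under the 100 CPM used for the flag. For Spp1 a shallow, unnamed mesenchymal cluster exceeded the activated-fibroblast-like value by 5.31, but 1 KO cell held 464 of its 488 KO UMIs, and without the highest cell of each library its ratio turned from 2.87 to −0.86.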

How the results depend on the processing

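The count of 5 genes at least 2-fold lower in KO fibroblast-like cells became 1 at resolution 0.4, 2 at resolution 1.2 and 3 with 1 in 6 KO cells, where no activated class was named. With alternatives chosen after seeing the data it became 3 with the unnamed mesenchymal clusters, 2 without the activated class and 3 without cells holding an immune marker UMI, and it was 5 without the highest cell of each library. Of all genes, 2.59% were at least 2-fold lower in the main setting and 2.28% without the activated class. This share is not given here for the other alternatives, so their counts have no background beside them. The Cthrc1 ratio turned positive in 3 of the alternatives, at 0.089 (resolution 0.4), 0.19 (resolution 1.2) and 0.21 (without the activated class), and the other 9 genes were lower in KO under every alternative run. In the main setting 65.0% of all genes were below 0. Scaling by TMM moved the fibroblast ratios up by 0.13 on the log2 scale and left 4 genes past 2-fold. With it, Thbs1 (0.08) and Eln (0.13) in alveolar-fibroblast-like cells were above 0. In the activated class, named in 7 of 10 clusterings, all 10 genes were lower in each and between 3 and 8 were past 2-fold, Spp1 between −3.63 and −0.82 and Tnc between −1.71 and −0.39. Of all genes in this class, 56.9% were lower and 2.34% at least 2-fold lower in the main clustering. Those shares are not given here for the other clusterings. Class levels moved beyond their counting interval in 132 of 278 cases, as with Spp1 in KO activated-fibroblast-like cells (519 to 5037 CPM). Levels of the classes therefore depended on the processing, and the counting intervals do not cover that. The alternatives changed cell filters as well as clustering, and the part of cluster borders was not tested. No paired analysis was possible because each genotype has 1 library. Pericyte-like and KO macrophage values rest on 19 to 71 cells.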

Other observations

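Cycling mesenchymal cells numbered 58 in WT and 25 in KO, too few for a ratio. They had Acta2 at 1313 CPM in WT and 295 in KO, Spp1 at 6571 and 148, and Cthrc1 at 96.8 and 5.28. Spp1 there came from 18 of 58 WT cells, where 1 cell held 717 of 1697 UMIs. In KO it came from 2 of 25 cells, where 1 cell held 26 of 28 UMIs. The Cthrc1 levels there stood on 25 WT UMIs in 4 cells, 14 of them in 1 cell, and on 1 KO UMI, too few to compare. A second unnamed mesenchymal cluster, 124 WT and 316 KO cells, had Thbs1 at 2112 and 1700 CPM, near the level of Hhip/Lgr6-fibroblast-like cells, but Acta2 at only 94.6 and 78.4 CPM. Mesothelial-like cells had Eln at 1314 CPM in WT and 654 in KO, a log2 ratio of −1.01 (−1.14 to −0.87).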
